A study of Sus scrofa with 16 samples.

Results

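The genes described here encode the subunits of oxidative phosphorylation, the 5 enzyme complexes of the inner mitochondrial membrane. Members were taken by gene symbol (NDUFA, NDUFB, NDUFC, NDUFS and NDUFV genes without the assembly factors, SDHA to SDHD, UQCR genes and CYC1, COX4 to COX8 and ATP5 genes). This gave 68 nuclear genes of the 22629 genes listed. By symbol, 31 belong to complex I, 4 to complex II, 5 to complex III, 15 to complex IV and 13 to complex V. They were set against the 13 subunits encoded in mitochondrial DNA (ND1 to ND6 with ND4L, CYTB, COX1 to COX3, ATP6 and ATP8). NDUFA4 was counted with complex I by its name, although the protein is known to associate with complex IV.

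Myocardial RNA came from 8 White Yorkshire-Landrace farm pigs operated on at P30, with tissue taken 4 weeks later. In 4 IR pigs the left anterior descending artery was occluded for 1 h and then reperfused, and 4 sham pigs had the same surgery without occlusion. From every pig both zones were sequenced, 16 libraries in all, and 2 females and 2 males were in each surgery group. By the study's methods the IR scar zone was not purely fibrous, and the sham "scar" was muscle from the corresponding place at the suture.

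Complex I oxidises NADH and complex II oxidises succinate, and both pass electrons through ubiquinone to complex III. Cytochrome c carries them on to complex IV, which reduces oxygen, and the proton gradient built on the way drives ATP synthesis by complex V. The heart depends on this pathway for most of its ATP, and cardiomyocytes (CMs) are packed with mitochondria, so these transcripts are among the most abundant in myocardium. Complexes I, III, IV and V combine subunits from both genomes, whereas complex II is built from nuclear genes alone.

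Estimated counts summed to between 15427663 and 49045206 per library, so that 3 counts corresponded to 0.0612 to 0.194 counts per 1000000 counts (CPM). The nuclear members took between 1.44% and 2.68% of all counts, and the mitochondrially encoded members took between 12.05% and 20.5%. CM markers were abundant in every library (13 of 16 were listed, MYH6 not among them, with a mean of 11.2 to 12.1 log2 CPM), and the skeletal muscle and adipocyte lists were low, with means of at most 2.27 and 1.30 log2 CPM. The scar libraries of IR pigs 9 and 11, both males, stood apart, with a mean of 9.37 and 9.54 log2 CPM for 10 fibroblast markers against 7.43 to 7.97 in the other 14 libraries, the scar libraries of the female IR pigs 2 and 14 among them (7.63 and 7.44). The scar library of IR pig 14, a female, held 4.48 CPM of the Y-linked DDX3Y, where the other libraries of females had 0.389 to 1.23 CPM and those of males 68.4 to 103 CPM.

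Levels can be compared between genes in transcripts per 1000000 transcripts (TPM), which take transcript length into account. All 13 mitochondrially encoded members ranked above every nuclear one, although poly(A) selection and transcript models can set the level of the mitochondrial set. COX1, the catalytic core of complex IV, had the highest mean TPM over the 16 libraries (62899.5 ± 8146, SD) and ND1 the lowest of the 13 (6769.5 ± 945). The most abundant nuclear members were NDUFA4 (2127 ± 231 TPM), ATP5F1E, the epsilon subunit of the ATP synthase (1907 ± 199 TPM), and COX4I1, the main form of subunit 4 of complex IV (1746 ± 244 TPM). ATP5F1A, the alpha subunit that forms the catalytic head of the ATP synthase with the beta subunit, followed at 1427 ± 96.1 TPM, and COX8H, listed as a heart form of subunit 8, at 1377 ± 293 TPM. The 4 subunits of complex II lay lower, from 164 TPM for SDHB to 392 TPM for SDHA. At the foot of the list were NDUFA4L2 (3.89 TPM), COX6B2, the testis form of subunit 6B (1.39 TPM), and COX7B2 (0.378 TPM), which had about 2 counts or fewer in any library and was the 1 member that did not pass the filter on low counts. Estimated counts of 1000000 or more were written with about 3 significant digits in the deposited table, which included all 16 values of COX1.

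**Figure D1:**
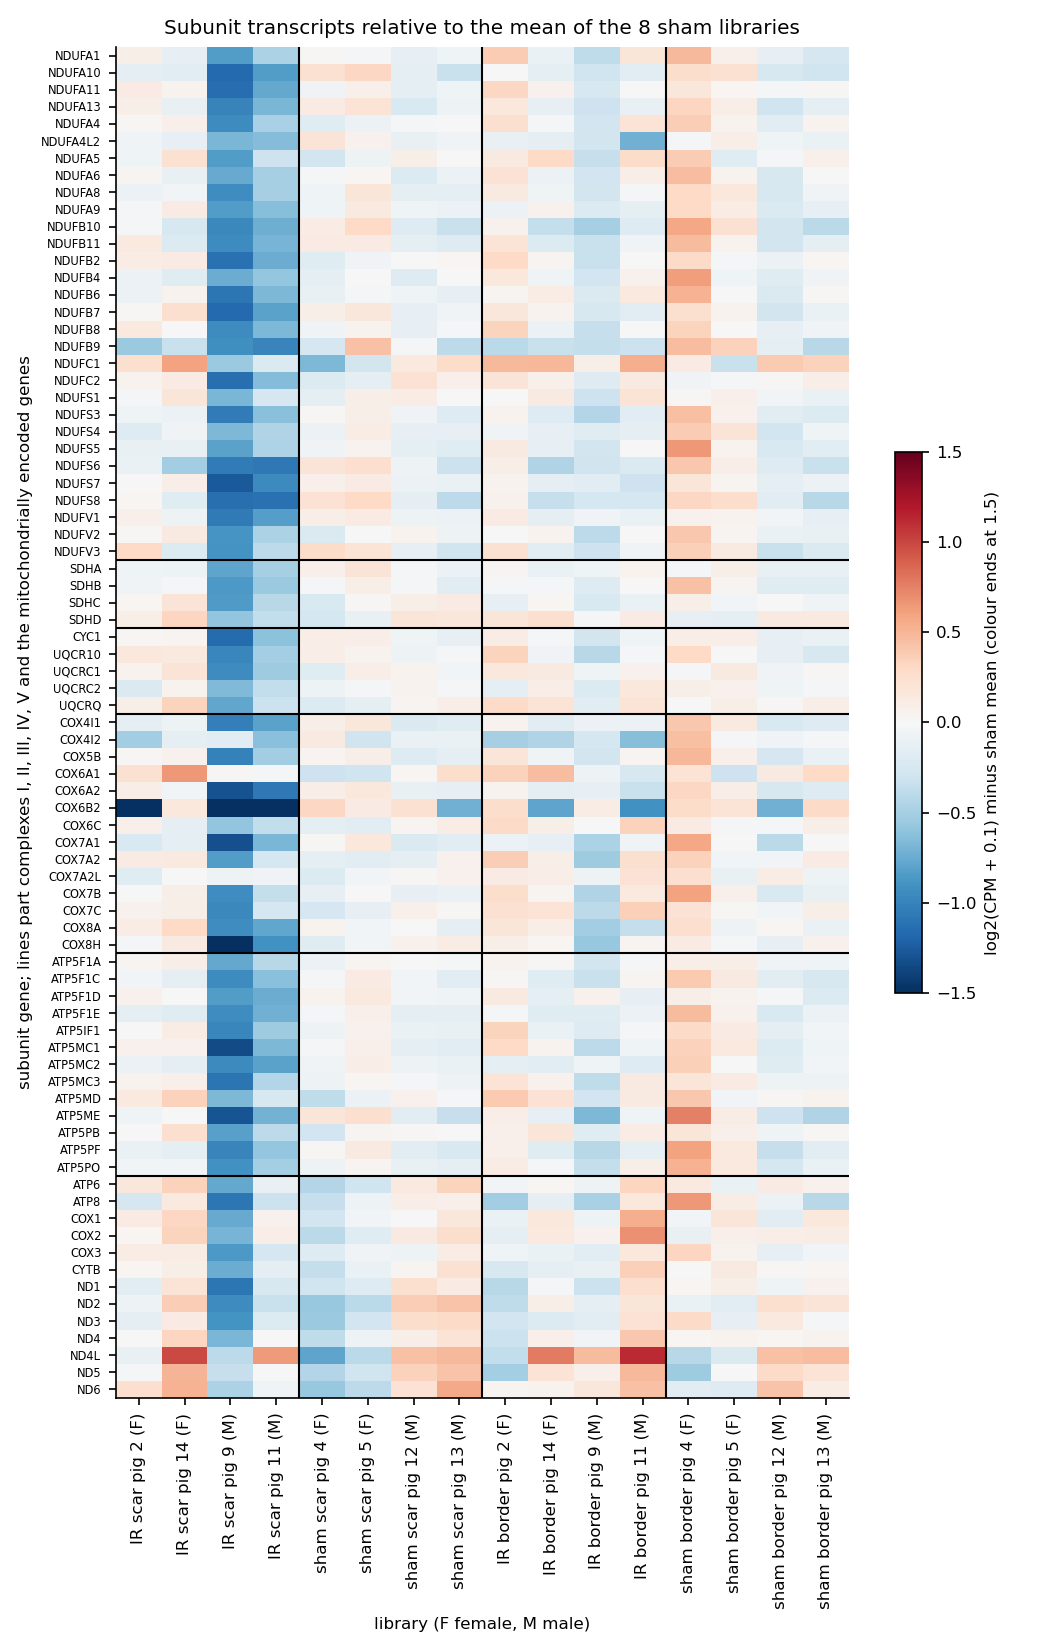
Each row is a subunit gene that passed the filter on low counts, with 1 left out, each column a library, and the colour gives log2(CPM + 0.1) minus the mean of the 8 sham libraries. The scar columns of the male IR pigs 9 and 11 are blue through most of complexes I to V, with COX6A1 and COX7A2L among the exceptions, whereas those of the female IR pigs 2 and 14 are mostly near the sham colours.

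In the scar zone, nuclear members were lower on balance in IR than in sham pigs, without any gene passing the adjusted threshold. Of 67 nuclear members tested, 64 had a log2 difference below 0, and their median was -0.27, where the median of all 14023 genes tested was 0.03. At an unadjusted p of 0.05, 2 nuclear members fell and 0 rose, beside a background of 4.64% of all genes called lower and 6.44% higher. At an adjusted p of 0.05, 0 members were called by edgeR, as with DESeq2 and with limma on log2(TPM + 1), which called 3 and 4 at the unadjusted threshold, and 0 of all genes were called by edgeR. The values of IR and sham pigs overlapped for all 67, where 2.85% of all genes were lower in every IR pig than in every sham pig. The count of 2 became 22 without IR pig 2, 12 without IR pig 14, 4 without sham pig 13 and 1 without IR pig 9 or 11 or sham pig 4 or 5, and 29 with sex as a covariate. In the same comparison all 10 fibroblast markers (median 0.92, 4 higher at the unadjusted threshold) and all 10 leucocyte markers (median 0.43, 0 at that threshold with edgeR) were above 0, and their part in the lower subunit levels was not tested. In bulk tissue, fewer CMs and less RNA per CM cannot be told apart.

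The summed CPM of all nuclear members differed by pig. In the IR scar zone it was 22996 in pig 2, 12209 in pig 9, 15825 in pig 11 and 23729 in pig 14. In the sham scar zone it was 22349 in pig 4, 24394 in pig 5, 22392 in pig 12 and 21901 in pig 13. Pigs 9 and 11 lay below all sham pigs and pigs 2 and 14 within their range. The SD was thus 5602 CPM in the IR group and 1112 CPM in the sham group, around means of 18690 and 22759 CPM. In TPM the same sum was 25364 ± 3819 in IR and 27665 ± 1211 in sham (SD, n = 4), a smaller gap, and on the log2(TPM + 1) scale the median of all genes was 0.15 higher in IR than in sham.

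**Figure D2:**
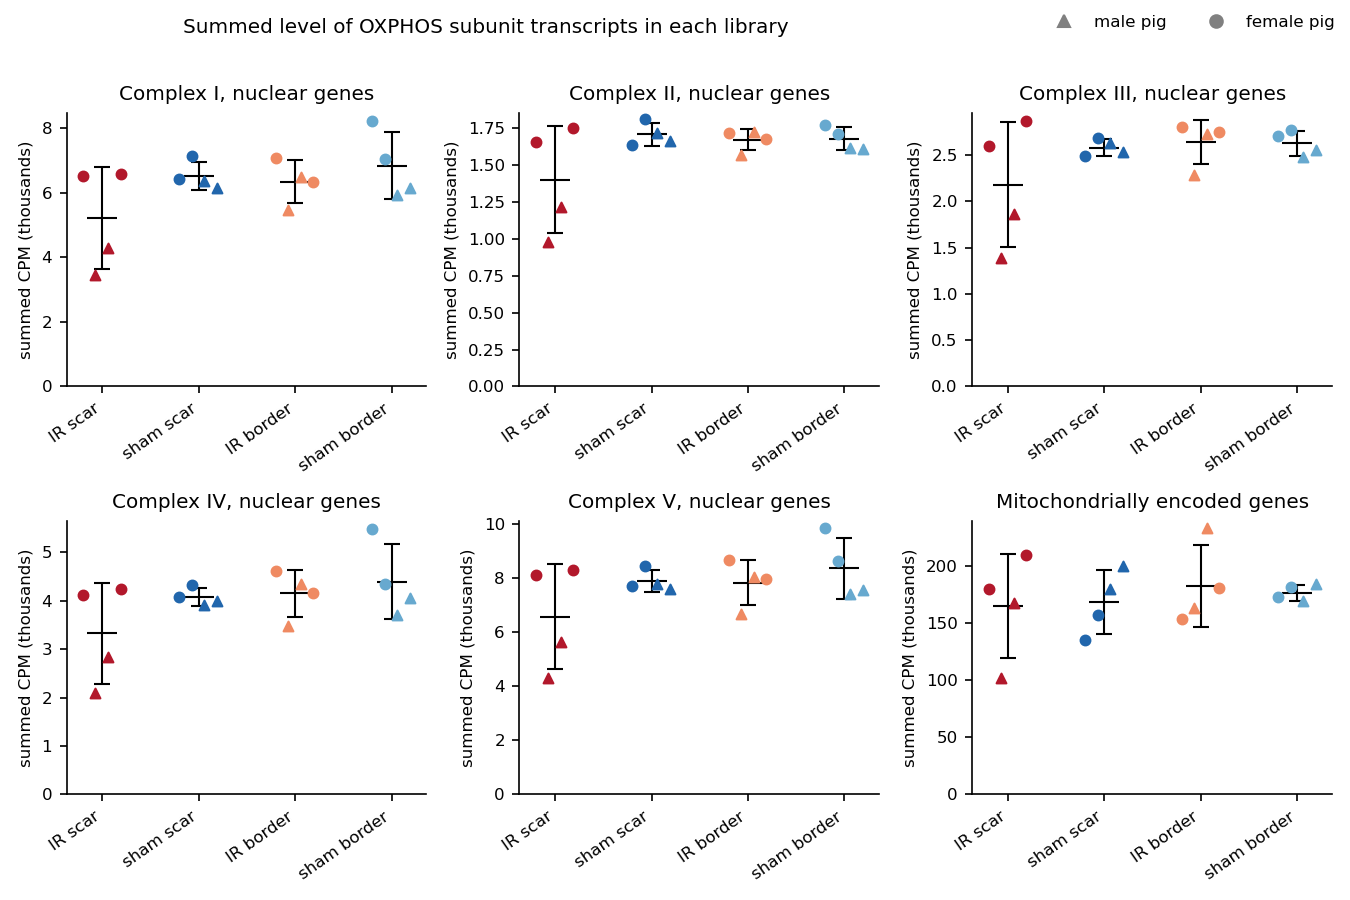
Summed CPM, in units of 1000 CPM, of the nuclear members of each complex and of the mitochondrially encoded members, with 1 point for each library (triangles males, circles females) and the mean and SD of the 4 pigs of each group. The male IR scar libraries are the lowest points of all 5 complexes, and the mitochondrially encoded sum of IR pig 11 lies inside the range of the sham scar zone.

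All 5 complexes had a median below 0. Both members past the unadjusted threshold belonged to complex I, which held 31 of the 67 tested. Of all genes 4.64% were called lower at that threshold. The median log2 difference in the scar zone was -0.30 for complex I (31 tested, 30 below 0), -0.26 for complex II (4 of 4 below 0), -0.23 for complex III (5 of 5 below 0), -0.22 for complex IV (14 tested, 13 below 0) and -0.31 for complex V (13 tested, 12 below 0). As summed TPM, IR scar tissue held 90.1% of the sham level for complex I, 94.0% for complex II, 95.7% for complex III, 88.4% for complex IV and 93.2% for complex V, and in CPM these were 80.0%, 82.0%, 84.4%, 81.7% and 83.4%.

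In complex I, NDUFB9 and NDUFS6 were the 2 members lower at the unadjusted threshold. NDUFB9, an accessory subunit of the membrane arm, stood at 248, 193, 184 and 290 CPM in IR pigs 2, 9, 11 and 14, against 306, 497, 360 and 279 CPM in sham pigs 4, 5, 12 and 13. All IR values but that of pig 14 were below the lowest sham value. The log2 difference was -0.65 ± 0.21 (SE; edgeR unadjusted p = 0.0127, adjusted p = 0.447; exact permutation p = 0.0571, two-sided, where 0.0286 is the smallest possible).

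NDUFS6, which lies at the join of the NADH-oxidising module and the rest of the peripheral arm, was measured at 137, 70.9, 69.4 and 102 CPM in IR pigs 2, 9, 11 and 14. The sham pigs 4, 5, 12 and 13 had 167, 174, 138 and 117 CPM. Pigs 9 and 11 were again lowest and the groups overlapped only through pig 2. The log2 difference was -0.65 ± 0.23 (edgeR unadjusted p = 0.0203, adjusted p = 0.447, exact permutation p = 0.0571), and it missed the unadjusted threshold without IR pig 9 or 11 or sham pig 4 or 5.

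NDUFV1, the subunit that binds NADH and the flavin, had 412 and 371 CPM in the female IR pigs 2 and 14. It had 188 and 220 CPM in the males 9 and 11, and 368 to 426 CPM in sham pigs. Its difference over all 4 pigs was -0.41 ± 0.24 (log2, unadjusted p = 0.127). NDUFS1, the largest iron-sulphur subunit, differed by -0.17 ± 0.18, and NDUFA4 by -0.20 ± 0.21. Without IR pig 9 these were -0.045 and -0.043, and without IR pig 14 they were -0.31 and -0.34. NDUFA4L2, a paralogue of NDUFA4 known to be raised by hypoxia, was at 13.6 to 21.2 CPM in IR and 20.3 to 25.1 CPM in sham scar tissue (log2 difference -0.38 ± 0.17, unadjusted p = 0.0553).

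Complex II contains succinate dehydrogenase, shared with the tricarboxylic acid cycle. SDHA, its flavoprotein, had 803, 488, 599 and 801 CPM in IR pigs 2, 9, 11 and 14 and 887, 966, 828 and 795 CPM in sham pigs 4, 5, 12 and 13. The males 9 and 11 were far below the sham range and both females near its lower end. The difference was -0.37 ± 0.18 (log2, unadjusted p = 0.0697). SDHB, the iron-sulphur subunit, differed by -0.30 ± 0.19, and the remaining members, the membrane anchors SDHC and SDHD, were likewise below 0 without passing the unadjusted threshold.

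In complex III, CYC1, the haem-bearing cytochrome c1, was at 620.5, 276, 401 and 629.8 CPM in IR pigs 2, 9, 11 and 14, whereas the sham pigs had 565 to 658 CPM. The difference was -0.35 ± 0.24 (log2, unadjusted p = 0.179). UQCRC2, a core protein of the complex, differed by -0.26 ± 0.16 (unadjusted p = 0.131).

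In complex IV, COX4I1 was at 875, 471, 548 and 910 CPM in IR pigs 2, 9, 11 and 14, and at 827 to 1082 CPM in sham pigs (log2 difference -0.42 ± 0.23, unadjusted p = 0.0940). COX8H had the widest range among the abundant members, with 216, 53.9, 117 and 240 CPM in IR pigs 2, 9, 11 and 14 against 193 to 236 CPM in sham pigs, and a difference of -0.48 ± 0.39, which was -0.20 without IR pig 9 and -0.76 without IR pig 14. COX6A1 was the member of this complex that lay above 0 (0.31 ± 0.19, unadjusted p = 0.131). The most negative value, -1.31 ± 0.59 for COX6B2 (unadjusted p = 0.0509), rested on 2 to 26 estimated counts per scar library.

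In complex V, ATP5F1E was at 385, 221, 255 and 373 CPM in IR pigs 2, 9, 11 and 14 and at 384 to 445 CPM in sham pigs (log2 difference -0.40 ± 0.19, unadjusted p = 0.0637). ATP5F1A, the most highly counted nuclear member, was at 2777, 1583, 2021 and 2863 CPM in the IR pigs and 2544 to 2768 CPM in the sham pigs, a difference of -0.20 ± 0.20, which was -0.07 without IR pig 9 and -0.32 without IR pig 14.

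**Figure D3:**
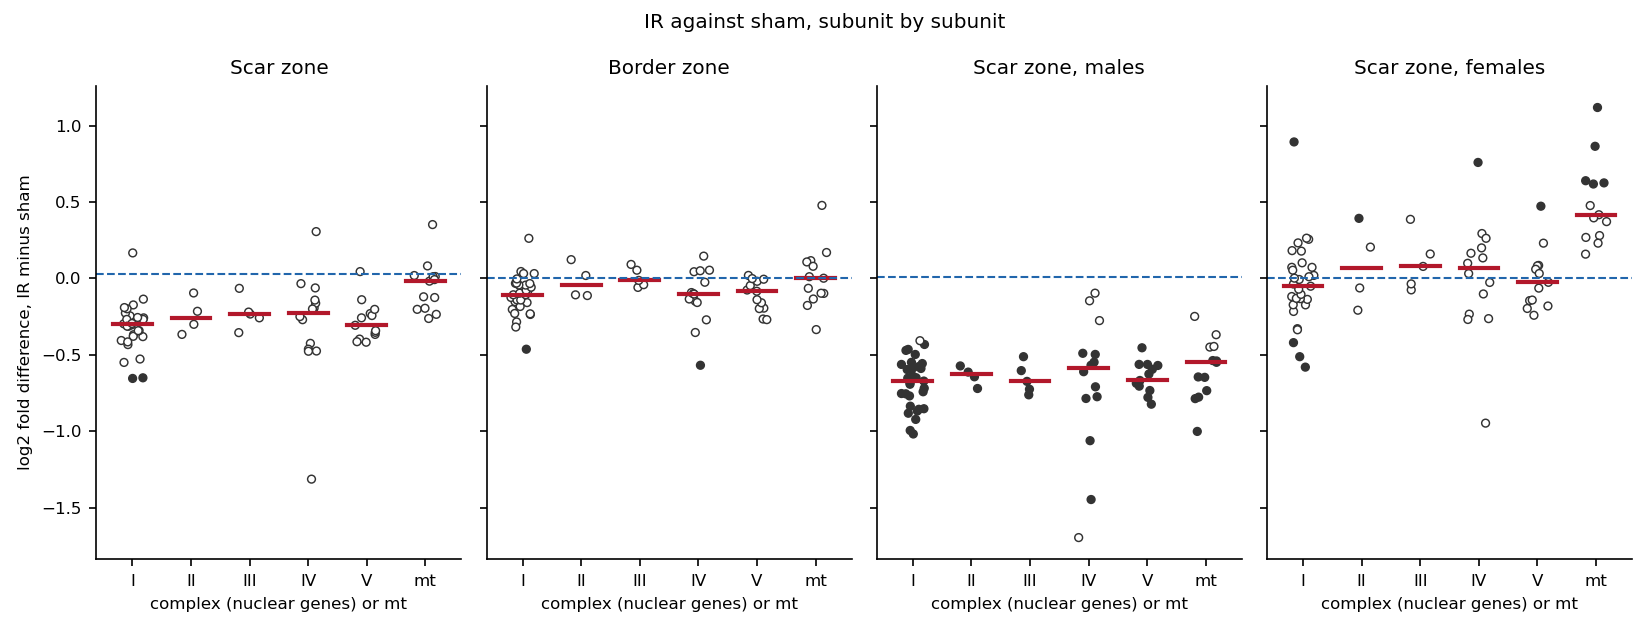
Log2 difference of IR minus sham for each member (1 point each, filled where the unadjusted edgeR p is at most 0.05), by complex and for the mitochondrially encoded members (mt), with the median of each set in red and of all genes tested as a dashed line. In the scar zone of males the medians of all 5 complexes lie between -0.67 and -0.59, and in females between -0.05 and 0.08.

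Since the low libraries were those of the male IR pigs, IR was also compared with sham within each sex. This comparison was chosen after the library values had been seen and has 2 pigs a cell. Its p-values and counts of members are therefore not independent support. In males, all 67 nuclear members were lower in IR scar tissue, with a median log2 difference of -0.65, where the median of all genes was 0.01. Of the 67, 37 fell at an adjusted p of 0.05 (edgeR), beside 3.42% of all genes called lower and 4.36% higher, and 62 at the unadjusted threshold, beside 11.5% lower and 12.9% higher. Of the 67 members, 0 were lower and 8 higher in both female IR scar libraries than in all 4 sham scar libraries. The shares of all genes tested were 7.94% and 6.22%. For the male pair, singled out by its low sums of these members, 62 of 67 (92.5%) were lower, beside 20.3% of all genes. The adjusted count was 59 with DESeq2 and 5 with limma on log2(TPM + 1), where the median of the members was -0.25 and that of all genes was 0.33. It fell to 0 without sham pig 12 or sham pig 13 and to 9 without IR pig 9, and was 45 without IR pig 11. Each of these fits left 1 library in 1 arm, which was assumed to vary like the other groups, as in every fit within sexes that left out a pig of that sex.

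In males every complex held members past the adjusted threshold, 20 of complex I, 4 of complex II, 3 of complex III and 5 each of complexes IV and V. Medians (log2) were -0.67 for complex I, -0.63 for complex II, -0.67 for complex III, -0.59 for complex IV and -0.67 for complex V. COX6A2, the heart and muscle form of subunit 6A, gave the smallest p among the members, with 135 and 158 CPM in IR pigs 9 and 11 and 308 and 305 CPM in sham pigs 12 and 13 (log2 difference -1.06 ± 0.14, edgeR adjusted p = 0.00626). Among other members, NDUFV1 fell by 0.85 on the log2 scale (adjusted p = 0.0133), CYC1 by 0.76 (adjusted p = 0.0373), COX4I1 by 0.71 (adjusted p = 0.0214) and ATP5F1D, the delta subunit of the ATP synthase, by 0.73 (adjusted p = 0.0144). All 4 subunits of complex II passed as well, with log2 differences between -0.72 for SDHC and -0.57 for SDHA. The largest called difference was that of COX8H, -1.45 ± 0.31 (adjusted p = 0.0310), and it missed the adjusted threshold without IR pig 2 or 14 or sham pig 12 or 13. Members that did not pass included ATP5F1A (-0.56 ± 0.16, adjusted p = 0.0670), COX4I2 (-0.28 ± 0.23) and COX6A1 (-0.15 ± 0.16), and the last pair turned positive with limma on log2(TPM + 1), at 0.13 and 0.25.

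In females, the nuclear members were centred on the genes as a whole, with a median log2 difference of -0.03 and 35 of 67 below 0. At the unadjusted threshold 4 were lower and 4 higher, beside 5.8% and 7.05% of all genes, and 0 passed the adjusted threshold with edgeR (2 with DESeq2, COX6A1 and NDUFC1, both higher, and 0 with limma). These 8 became 5 without sham pig 4, 4 without sham pig 5, 3 without IR pig 14 and 12 without IR pig 9. NDUFS6 and NDUFB9 were among the 4 lower ones, at -0.51 ± 0.17 (unadjusted p = 0.0153) and -0.58 ± 0.23 (unadjusted p = 0.0339). The other 2 were NDUFA10 and NDUFS8 of complex I, at -0.42 and -0.33. The difference of NDUFB9 in females was -0.19 without sham pig 5 and -0.89 without sham pig 4, and that of NDUFS6 was -0.31 without IR pig 14. COX6A1 was higher, with 92.6 and 124 CPM in IR pigs 2 and 14 and 63.5 and 64.1 CPM in sham pigs 4 and 5 (log2 difference 0.76 ± 0.16, unadjusted p = 0.00134, adjusted p = 0.182).

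The IR effects of males and females were also set against each other, with the same 2 pigs a cell. That split was chosen after the library values had been seen, so its p-values are not independent support. The IR effect in males minus that in females had a median of -0.66 (log2) over the 67 nuclear members, all of them below 0, where the median of all genes was 0.00. At the adjusted threshold 6 passed, all lower, beside 0.492% of all genes called lower and 1.28% higher, and at the unadjusted threshold 46, beside 9.04% lower and 9.61% higher. They were NDUFB2, NDUFC1 and NDUFC2 of complex I (-1.16 ± 0.21, -1.48 ± 0.27 and -1.27 ± 0.24), SDHD of complex II (-1.04 ± 0.20), and COX8A and COX6A2 of complex IV (-0.99 ± 0.19 and -0.96 ± 0.19), with adjusted p-values from 0.0403 to 0.0493. The sham pigs also differed by sex. For NDUFC1 the sham females 4 and 5 had 26.0 and 34.2 CPM in the scar zone and the sham males 12 and 13 had 46.0 and 50.4 CPM, and for NDUFB2, NDUFC2 and SDHD both sham males were likewise above both sham females. For COX6A2 both sham males were below both sham females, and for COX8A the sexes overlapped. The count was 28 with DESeq2, 1 with limma on log2(TPM + 1) and 0 with 1 factor of unwanted variation. It was 0 without sham pig 4, 5, 12 or 13 or without IR pig 14, 1 without IR pig 2 or IR pig 9, and 9 without IR pig 11.

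Markers of other cell types moved in the same libraries. In the male comparison all 10 fibroblast markers rose at the unadjusted threshold and 9 at the adjusted one, beside 12.9% and 4.36% of all genes called higher, with a median of 1.74 (log2), and COL1A1, the chain of type I collagen, was at 5642 and 9479 CPM in pigs 9 and 11 against 704 to 1547 CPM in the other 14 libraries. In females 9 of the 10 fibroblast markers were below 0 (median -0.37), 2 of them lower at the unadjusted threshold, beside 5.8% of all genes, and 0 at the adjusted one with edgeR. For males minus females the median of this list was 1.82, with 7 higher at the adjusted threshold, beside 1.28% of all genes. Of 10 leucocyte markers 2 rose at the adjusted threshold (median 0.67) in males. Of 13 CM markers 9 were below 0 and 3 fell at the adjusted threshold, beside 3.42% of all genes (median -0.28), and the mean of the CM list was 11.2 and 11.6 log2 CPM in pigs 9 and 11, against 11.7 to 12.1 elsewhere. The contractile genes did not all follow: TNNI3, cardiac troponin I, was at 1991 and 2111 CPM in pigs 9 and 11 and 3954 to 4778 CPM in the sham scar zone, whereas MYH7, the slow myosin heavy chain, was at 36963 and 43806 CPM against 35851 to 54328 CPM. The part of these cell types in the lower subunit levels was not tested, and sex and the amount of scar in the tissue piece cannot be told apart with 2 pigs a cell.

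**Figure D4:**
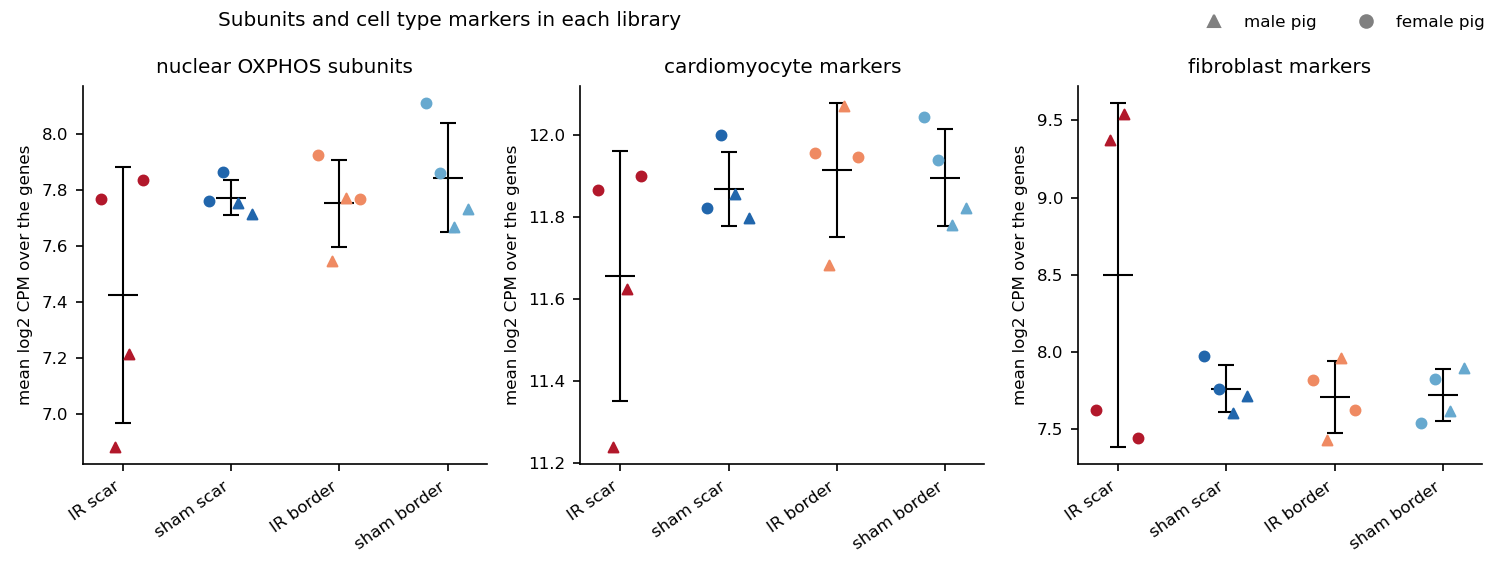
Mean log2 CPM over 67 nuclear subunits, 13 cardiomyocyte markers and 10 fibroblast markers in each library (triangles males, circles females), with the mean and SD of 4 pigs. The male IR scar libraries are lowest for the subunits and highest for the fibroblast markers. Each axis has its own range and none starts at 0.

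The mitochondrially encoded members were not lower on balance in the scar zone of IR pigs. Their median log2 difference was -0.02, with 8 of 13 below 0 and values from -0.26 for ATP8 to 0.35 for ND4L, and 0 passed even the unadjusted threshold, with edgeR, DESeq2 or limma on TPM. COX1 was at 77429.9, 42343, 74728 and 88318 CPM in IR pigs 2, 9, 11 and 14 and at 58606, 69339.9, 71190.2 and 80403 CPM in sham pigs 4, 5, 12 and 13. Pig 9 was below and pig 14 above all sham pigs, and the difference was 0.02 ± 0.24 (log2).

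Within sexes the mitochondrial set split. In males its median was -0.55, with all 13 below 0, 9 lower at the unadjusted threshold, beside 11.5% of all genes called lower, and ND2, a proton-pumping subunit of complex I, alone at the adjusted one, beside 3.42% (-1.0015 ± 0.23, adjusted p = 0.0376), where DESeq2 called 7. The 9 became 5 without IR pig 9, 4 without sham pig 12 and 3 without sham pig 13. In females the median was 0.42, with all 13 above 0, 5 at the unadjusted threshold, beside 7.05% of all genes called higher, led by ND6, the single subunit encoded on the light strand (0.87 ± 0.20, unadjusted p = 0.00239, adjusted p = 0.196), and 0 at the adjusted one, where DESeq2 called 1. The 5 became 1 without IR pig 14 or sham pig 4, 3 without sham pig 5 and 9 without IR pig 9 or 11. The direct difference of males minus females was below 0 for all 13, with a median of -1.05, and passed for ND6 (-1.51 ± 0.29, adjusted p = 0.0428) and ND2 (-1.64 ± 0.33, adjusted p = 0.0496), where DESeq2 called 6, limma on log2(TPM + 1) called 4 and the fit with 1 factor of unwanted variation 0. ND2 was at 4906, 2707, 4131 and 6718 CPM in IR pigs 2, 9, 11 and 14 and at 3511, 3937, 6729 and 7007 CPM in sham pigs 4, 5, 12 and 13, so that the sham males were also well above the sham females. Without IR pig 11, 6 mitochondrially encoded members passed the adjusted threshold in this test and 9 in the male comparison, whereas 0 passed in this test without any other single pig. In the male comparison 0 passed without IR pig 9 or sham pig 5, 12 or 13.

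The ratio of summed TPM, mitochondrially encoded to nuclear, does not depend on how a library was scaled. Poly(A) selection and transcript models can, however, set its level. The ratio was 9.81, 10.9, 13.6 and 11.3 in the scar zone of IR pigs 2, 9, 11 and 14. In that of sham pigs 4, 5, 12 and 13 it was 7.64, 8.14, 10.6 and 11.8. The means were 11.4 ± 1.59 and 9.54 ± 1.98 (SD, n = 4), and the groups overlapped. In the border zone the means were 10.2 ± 2.04 in IR and 9.56 ± 1.16 in sham. In both surgery groups and both zones the ratio was lowest in a female, from 7.58 to 9.81.

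Estimated levels of mitochondrial genes that share a messenger also differed by pig relative to each other. ND4L, which shares a bicistronic messenger with ND4, had a TPM of 0.401 to 0.618 times that of ND4 in both libraries of pigs 2, 4 and 5 and of 0.769 to 1.09 times in the libraries of the other 5 pigs. Those 3 pigs were females, 1 IR and 2 sham, and the remaining female, pig 14, had ratios of 1.04 and 1.07. ATP8, which overlaps ATP6 on their common messenger, had 0.752 to 1.31 times its TPM.

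In the border zone, nuclear members lay close to all genes, with a median log2 difference of -0.10 and 54 of 67 below 0, where all 13728 genes tested had a median of 0.00. By complex the medians were -0.11 for I, -0.04 for II, -0.01 for III, -0.10 for IV and -0.08 for V. At the unadjusted threshold 2 members were lower and 0 higher, beside 1.61% of all genes called lower and 1.91% higher, and at the adjusted one 0 were called by edgeR, DESeq2 or limma. The unadjusted count was 1 without IR pig 9, 11 or 14 or sham pig 4 or 5. The mitochondrially encoded members had a median of 0.00.

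The 2 were COX4I2 and NDUFB9. COX4I2, the form of subunit 4 known to respond to low oxygen, was at 11.2, 13.2, 10.2 and 11.6 CPM in IR pigs 2, 9, 11 and 14 and at 21.7, 15.8, 15.4 and 15.7 CPM in sham pigs 4, 5, 12 and 13. Every IR pig was below every sham pig, with a log2 difference of -0.57 ± 0.16 (edgeR unadjusted p = 0.00421, adjusted p = 0.995; exact permutation p = 0.0286, the smallest possible). In the same comparison 7 of 8 smooth muscle and pericyte markers (median -0.16) and 6 of 7 endothelial markers (median -0.21) were below 0, with 0 called at the unadjusted threshold by edgeR, and their part in the lower COX4I2 was not tested. The groups were apart for 1 other member, NDUFA4L2, at 13.4 to 20.4 CPM in IR and 20.5 to 23.7 CPM in sham (log2 difference -0.28 ± 0.15, unadjusted p = 0.0901), and 1.22% of all genes were likewise lower in every IR pig. NDUFB9 was lower here too, with 277 to 292 CPM in IR pigs and 503, 464, 329 and 274 CPM in sham pigs 4, 5, 12 and 13 (-0.46 ± 0.19, unadjusted p = 0.0323), and the groups overlapped through sham pig 13. Within sexes the border difference of NDUFB9 was -0.77 ± 0.17 in females (unadjusted p = 0.00137, adjusted p = 0.578) and -0.07 ± 0.17 in males (unadjusted p = 0.695), and males minus females gave 0.71 ± 0.24 (unadjusted p = 0.0162, adjusted p = 0.634, edgeR). NDUFB9 missed the unadjusted threshold when any pig other than sham pig 12 or 13 was left out, and NDUFA4L2 passed it without IR pig 2.

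Of the male IR pigs, pig 9 had the lowest summed nuclear CPM of the 8 border libraries and pig 11 lay within the sham range. The sum was 19473 in pig 9 and 23318 in pig 11, against 24870 in pig 2, 22881 in pig 14 and 21149 to 28012 in sham pigs, the highest in sham pig 4. Within males the median log2 difference was -0.01 and within females -0.16, and the difference between them was 0.14. For each of these 3 comparisons 0 nuclear members passed the adjusted threshold with edgeR (DESeq2 called 0, 1 and 0, and limma 0). At the unadjusted threshold 1 was lower in males, beside 2.63% of all genes called lower and 1.94% higher. In females 4 were lower and 1 higher, beside 3.21% and 4.18%, and for the difference 1 was lower and 1 higher, beside 3.8% and 2.96%. The 5 of females became 14 without sham pig 5, 3 without sham pig 4 and 2 without IR pig 14. The 1 of males became 3 without IR pig 11 and 0 without sham pig 12 or 13, and the 2 of the difference became 5 without IR pig 2, 4 without sham pig 4 and 0 without sham pig 13. Of all genes at most 0.00728% were called lower and 0.0146% higher at the adjusted threshold. The fibroblast list was at 7.43 and 7.96 log2 CPM in the border libraries of pigs 9 and 11.

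Both zones came from the same pigs, so they could be compared within animals. The mean log2 CPM over the 67 nuclear members was lower in scar than in border tissue by -0.66 in pig 9 and -0.56 in pig 11, and differed by -0.16 in pig 2 and 0.07 in pig 14. In sham pigs the differences were -0.35 in pig 4, 0.00 in pig 5, 0.09 in pig 12 and -0.02 in pig 13. Over the IR pigs, 65 of 67 members were lower in the scar zone, with a median of -0.28. Only COX6C, a small subunit of complex IV, passed the unadjusted threshold without a term for the pig, beside 1.38% of all genes called lower and 5.46% higher (352, 223, 258 and 306 CPM in the scar zone and 409, 337, 425 and 357 CPM in the border zone of pigs 2, 9, 11 and 14, log2 difference -0.42 ± 0.14, edgeR unadjusted p = 0.00802). With the pig as a block, 44 of 67 passed, all lower, beside 7.84% of all genes called lower and 9.91% higher, with a median of -0.33. They were 21 of complex I, 3 of complex II, 4 of complex III, 8 of complex IV and 8 of complex V, and 0 passed the adjusted threshold (smallest adjusted p = 0.149 for COX6C, edgeR). Without a term for the pig, all 10 fibroblast markers were above 0 between the same zones (median 0.93), 8 of them higher at the unadjusted threshold, and all 10 leucocyte markers were above 0 (median 0.23, 2 higher). Their part in the lower subunit levels of the scar zone was not tested. For the subunits without that term, leaving out IR pig 14 raised the count to 13, IR pig 2 to 6 and IR pig 9 or sham pig 4 to 2, and leaving out IR pig 11 lowered it to 0.

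Among sham pigs the scar and border zones differed by a median of -0.09 over the nuclear members, with 0 called at the unadjusted threshold by edgeR, DESeq2 or limma, beside 0.231% of all genes called lower and 0.14% higher (with the pig as a block 0, beside 1.3% and 1.4%). The IR effect in the scar minus that in the border was below 0 for 64 of 67 nuclear members, with a median difference of -0.19 (all genes 0.01), and 0 passed the unadjusted threshold with edgeR, DESeq2 or limma, beside 0.273% of all genes called lower and 1.93% higher. With the pig as a block 4 passed, all lower, beside 2.78% lower and 3.99% higher, namely NDUFS6 and NDUFA10 of complex I, SDHA and COX6C. The mitochondrially encoded members had a median of -0.05 in the same test.

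Several subunits, most of them in complex IV, exist in paired forms, often a wide-spread form and a form of heart and skeletal muscle. Of 8 pairs considered, 6 had both forms listed, and ratios of TPM could be formed in every library for 5 of them, which gave 10 exact permutation tests (two-sided) over both zones, added after the data had been seen. COX7A1, the muscle form of subunit 7A, was at 0.496, 0.448, 0.466 and 0.512 times the TPM of the wide-spread COX7A2 in the scar zone of IR pigs 2, 9, 11 and 14. The sham ratios were 0.737, 0.823, 0.617 and 0.531 in pigs 4, 5, 12 and 13, all higher than any IR value. The exact permutation p was 0.0286, and 0.143 after Benjamini-Hochberg adjustment over the 10 tests. COX6A2 relative to COX6A1 was at 7.12, 3.12, 3.77 and 4.83 in IR pigs 2, 9, 11 and 14 and 10.4, 10.7, 7.07 and 5.97 in sham pigs 4, 5, 12 and 13 (exact permutation p = 0.0857, adjusted 0.286), the groups overlapping through pig 2.

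COX8H held 5.12, 2.69, 5.18 and 5.06 times the TPM of COX8A in IR scar tissue and 4.58 to 6.78 times in sham scar tissue, so that pig 9 alone was low (exact permutation p = 0.286). In the border zone the ratio of COX4I2 to COX4I1 was lower in all IR pigs (0.0156 ± 0.00212 against 0.0211 ± 0.00227, SD, n = 4, exact permutation p = 0.0286, adjusted 0.143), although the highest IR value, 0.01806 in pig 9, almost met the lowest sham value, 0.01807 in pig 5. The ratios of the other 4 pairs overlapped between groups there.

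**Figure D5:**
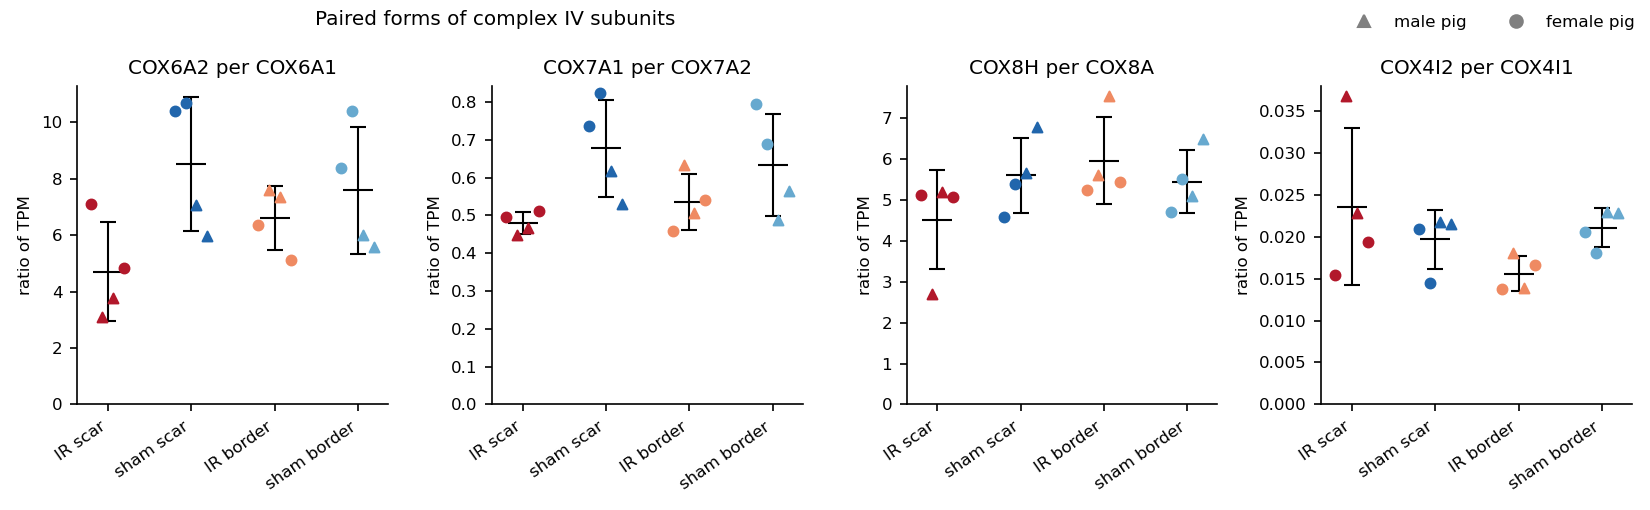
Ratio of TPM between paired forms of subunits of complex IV in each library (triangles males, circles females), with the mean and SD of 4 pigs. COX7A1 per COX7A2 in IR scar tissue lies at 0.448 to 0.512, below all sham scar values, and COX4I2 per COX4I1 is lower in all IR border libraries than in all sham border libraries.

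The genes that assemble the complexes and feed them were followed on lists. Of 40 assembly factors tested, 31 were below 0 in the scar zone, with a median of -0.17, and 3 fell at the unadjusted threshold, beside 4.64% of all genes called lower, namely NDUFAF7 for complex I (-0.35 ± 0.14, unadjusted p = 0.0349), TTC19 for complex III (-0.34 ± 0.10, unadjusted p = 0.00920) and COX17, a copper chaperone for complex IV (-0.51 ± 0.20, unadjusted p = 0.0300). In males 38 of 40 were below 0 with a median of -0.36, and 8 fell at the adjusted threshold, beside 3.42% of all genes called lower in males. Of 13 tricarboxylic acid cycle genes all were below 0 in the scar zone (median -0.26), 1 at the unadjusted threshold, IDH3B of isocitrate dehydrogenase (-0.51 ± 0.19, unadjusted p = 0.0229), and in males 5 fell at the adjusted threshold (median -0.62). Carriers of electrons and metabolites had a median of -0.20 (12 of 13 below 0 in the scar zone), with SLC25A6, an exchanger of ADP and ATP, the 1 past the unadjusted threshold (-0.67 ± 0.16, unadjusted p = 0.00195), and 5 fell in males at the adjusted one (median -0.54).

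The 25 genes for replication, transcription and translation of mitochondrial DNA had a median of 0.00 in the scar zone, with 0 called at the unadjusted threshold by edgeR, and of -0.25 in males with 1 lower at the adjusted one, beside 3.42% of all genes. In females their median was 0.17, with 10 higher and 1 lower at the unadjusted threshold, beside 7.05% and 5.8% of all genes. The 14 regulators of mitochondrial biogenesis had a median of -0.12. PPARGC1B, a coactivator of this programme, was lower (-0.84 ± 0.24, unadjusted p = 0.00535) and its relative PPRC1 higher (0.38 ± 0.14, unadjusted p = 0.0238), beside 4.64% of all genes called lower and 6.44% higher, and in males 5 of the 14 fell at the adjusted threshold, beside 3.42% (median -0.53). In females 0 genes of any of these lists passed the adjusted threshold with edgeR.

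A further 7 nuclear subunits were listed by Ensembl ID alone and lie outside the rule by symbol, namely NDUFA2, NDUFAB1, NDUFB1, NDUFB5, UQCRFS1, UQCR11 and COX5A. They were found after the tables had been opened, through a table of gene names. In the scar zone all 7 were below 0 (median -0.26, 0 at the unadjusted threshold with edgeR), and in males all 7 fell at the unadjusted threshold, beside 11.5% of all genes called lower, and 4 at the adjusted one, beside 3.42% (median -0.62). In females 2 of 7 were below 0 (median 0.08).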

How the data were processed

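Per the labels and the study's methods, the authors prepared stranded poly(A)-selected libraries, trimmed and aligned the reads, and quantified transcripts with kallisto on Ensembl pig cDNA. The submitters' processing notes name Trimmomatic 0.33, HISAT2 2.0.5 and kallisto 0.43.1. The authors deposited estimated counts and TPM per gene, and the genome build is not given in the sources used here. The estimated counts were rounded to integers, then filtered with filterByExpr (minimum count 10, minimum total 15). They were scaled by TMM and tested with edgeR's quasi-likelihood test (edgeR 4.0.16, R 4.3.3) on all genes of the zone or zones compared, with Benjamini-Hochberg adjustment at 0.05. CPM are TMM-scaled with no prior count, and mean log2 CPM used a prior count of 2. DESeq2 1.42.0 and limma 3.58.1 on log2(TPM + 1) or log2(TPM + 0.1), for genes of at least 1 TPM in 4 samples, were alternatives, as was 1 factor of unwanted variation estimated from 5000 genes. The scripts were tested on simulated data.

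The members and gene lists were chosen with earlier results of these data known. The members named were paired forms, all complex II and mitochondrially encoded members, a list of central subunits and, in each complex, the nuclear member of highest mean TPM and the member of smallest p in each of the 5 planned comparisons, 50 in all, of which 1 is not reported here by name. From each gene list the genes of smallest p in the scar zone could be named. COX7A2L, NDUFA10, NDUFB2, NDUFC1, NDUFC2 and NDUFS8 fall outside this rule and were named after their values were seen. Comparisons within sexes and tests of paired forms were added after the data had been seen. Same-numbered samples came from the same pig, and deviations from group means correlated within pigs (r from 0.348 to 0.776 over 12530 genes, highest for the pig's own sample in 8 of 8). Exact permutation tests were two-sided. P-values of IR against sham within a zone measure the spread between pigs. Fits of both zones without a term for the pig treated the 16 libraries as independent, although every pig gave both zones. Fits with the pig as a block measure the spread within pigs. Floors cover counting error only. Genomic sequences and coordinates were not used here.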

Additional observations from a re-analysis of the deposited data

Results flagged for a closer look

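Of 232 groups of 4 libraries examined, 9 held 1 library far from the other 3 by Dixon's criterion. That is a smaller share than the 1 in 20 or so that chance gives. In the border zone of IR pigs, the male pig 9 was low for the summed complex III members (2289 CPM), for COX8H (147 CPM) and for SDHB (253 CPM). In the sham border zone, pig 4 was high for COX4I2 (21.7 CPM) and for NDUFB4, a subunit of complex I (254 CPM). In the sham scar zone, pig 13 was high for COX7A2 (139 CPM). The remaining values were near the detection floor, at 0.883 CPM for COX6B2 in the scar zone of IR pig 14, 0.437 CPM for COX6B2 in the border zone of sham pig 12 and 0.0486 CPM for COX7B2 in the same library.

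For 8 members the IR effect in the scar zone differed between males and females at the adjusted threshold (edgeR, 2 pigs a cell, a split chosen after the library values had been seen), beside 0.492% of all genes called lower and 1.28% higher. The 6 nuclear calls were 28 with DESeq2, 1 with limma, 0 with 1 factor of unwanted variation and 0 to 9 with each pig left out. The 2 mitochondrial calls were 6 with DESeq2, 4 with limma, 0 with that factor and 0 to 6 with each pig left out. The differences of males minus females on the log2 scale were -1.16 for NDUFB2, -1.48 for NDUFC1, -1.27 for NDUFC2, -1.04 for SDHD, -0.99 for COX8A, -0.96 for COX6A2, -1.51 for ND6 and -1.64 for ND2. The part of the fibroblast-rich scar libraries of pigs 9 and 11 in these differences was not tested.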

How the results depend on the processing

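With 4 pigs a group and 2 in the comparisons within sexes, single pigs weighed heavily, and the cause of each change below was not tested. In the scar zone the number of nuclear members at the unadjusted threshold was 2, and it was 4 without a filter on low counts and with limma at either pseudocount, 28 with 1 factor of unwanted variation, 29 with sex as a covariate, 8 in 1 fit of all samples, and 1 to 22 with each pig left out. In the border zone it was 1 to 2 with each pig left out. For the difference between zones it was 1 with the factor of unwanted variation, 4 with the pig as a replicate block and 0 to 2 with each pig left out. Between scar and border zone in IR pigs it was 2 with DESeq2 or with totals without mitochondrial genes, 3 with limma at either pseudocount, 11 with the factor, 44 with the pig as a block and 0 to 13 with each pig left out. The block changed no call in sham pigs. Adjusted counts for these comparisons were 0 throughout.

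In males the adjusted count was 59 with DESeq2, 5 with limma at either pseudocount and 0 to 45 with each pig left out, and in females 2 with DESeq2. For males minus females it was 28 with DESeq2, 1 with limma at either pseudocount, 0 with the factor, 3 without robust dispersions and 0 to 9 with each pig left out. With limma at either pseudocount the nuclear median was -0.25 in males and -0.24 for males minus females, and the mitochondrial median -0.17 and -0.68. COX6A1 and COX4I2 in males then turned positive (0.25 and 0.13 at both pseudocounts), as did the nuclear median of border females (0.0063), and that of border males minus females turned to -0.055. With limma at pseudocounts of 1 and 0.1, the members at the unadjusted threshold in the scar zone were 21 and 21 of the nuclear set (62 with edgeR) and 3 and 5 of the mitochondrial set (9) in males, 10 and 11 of the mitochondrial set (5) in females, and 18 and 18 of the nuclear set (46) for males minus females. In the border zone the nuclear count with limma was 8 (5) in females and 6 (2) for the difference, and DESeq2 gave 0 (1) in males. The mitochondrial median of border males minus females ranged from -0.060 (without IR pig 11) to 0.52 with each pig left out.

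Leaving out each pig, nuclear medians ranged from -0.42 to -0.14 for the scar zone, -0.18 to 0.03 for the border zone, -0.32 to -0.09 for the zone difference, -0.43 to -0.20 for IR scar against border, -0.14 to 0.02 for sham scar against border, -0.84 to -0.50 for males, -0.06 to 0.00 for females and -0.83 to -0.47 for their difference. Mitochondrial medians ranged from -0.17 to 0.12, -0.13 to 0.05, -0.21 to 0.09, -0.29 to 0.00, -0.16 to 0.03, -0.87 to -0.37, 0.28 to 0.56 and -1.37 to -0.67 in the same order. In CPM in place of TPM, complexes I, II and III in IR scar tissue stood at 80.0%, 82.0% and 84.4% of sham, and the mitochondrial to nuclear ratio was 8.91 in IR scar, 7.43 in sham scar, 8.11 in IR border and 7.49 in sham border tissue.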
